A study of Ovis aries with 16 samples.

Results

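ITGB2, FCER1G, CTSS, LYZ, CD86 and ITGAM are genes commonly used as markers of microglia and macrophages, and their transcripts were measured in the hypothalamus of fetal sheep after transient hypoxia with and without ketamine. The members were chosen by name, with earlier results of these data known. A probe was included where the gene name of the array design, or the current RefSeq symbol of its accession, was one of the 6. This gave 11 probes of the 15008 on the array, for 6 of 1034 gene names, and all 11 passed the filter on dim signal that left 12249 probes to test. The names FCER1G and CTSS came from the array design, and those of the other 4 genes from the RefSeq table.

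The study asked how ketamine, an anesthetic that blocks NMDA receptors, changes the transcriptome of the fetal brain after a lack of oxygen. All 16 arrays came from Suffolk sheep fetuses in late gestation that carried chronic catheters. Tissue was taken 24 h after a stimulus of 30 min began, which left 23.5 h of normoxic recovery. The 3 NC fetuses had normoxia after intravenous saline, and the 4 NK fetuses had normoxia after intravenous ketamine. The 5 HC fetuses had hypoxia, brought about by lowering oxygen in the gas the ewe breathed, after saline, and the 4 HK fetuses had the same hypoxia after ketamine. Each array held RNA of 1 hypothalamus labelled with a single dye. Most fetuses in the study were twins, and since the labels do not say which arrays came from the same ewe, relatedness could not be modelled.

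Microglia are the resident macrophages of the brain. They enter it early in development, survey the tissue, clear debris and respond to injury, and under inflammatory conditions monocytes, neutrophils and lymphocytes can join them from the blood. The members are general myeloid genes rather than genes particular to microglia, and neutrophils and blood monocytes use several of them too. ITGB2 (CD18) is the beta chain of the leukocyte integrins and ITGAM (CD11b) the alpha chain that pairs with it to form complement receptor 3. FCER1G is the signalling chain shared by several Fc receptors and C-type lectins. CTSS is a lysosomal cysteine protease that trims the invariant chain of MHC class II. CD86 is a costimulatory ligand for CD28 and CTLA4 on T cells. LYZ is lysozyme, the enzyme that cuts bacterial cell walls, made by macrophages and neutrophils.

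Probe sequences from the array files are shown because the probes of a gene did not always report the same change, and the capitals mark the bases that both probes of a gene share. The sequences of both LYZ probes and of both ITGAM probes overlap by 40 of 60 bases, so each pair reads nearly the same stretch of transcript. The CD86 probes share no bases and are read from separate stretches.
LYZ A_70_P051227: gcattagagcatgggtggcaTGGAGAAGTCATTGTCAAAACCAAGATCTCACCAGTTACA
LYZ A_70_P051226: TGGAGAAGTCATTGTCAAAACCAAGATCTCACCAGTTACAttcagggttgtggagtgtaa
ITGAM A_70_P050947: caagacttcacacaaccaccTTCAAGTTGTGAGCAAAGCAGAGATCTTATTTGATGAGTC
ITGAM A_70_P050946: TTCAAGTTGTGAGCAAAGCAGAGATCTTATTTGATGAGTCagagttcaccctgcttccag
CD86 A_70_P030341: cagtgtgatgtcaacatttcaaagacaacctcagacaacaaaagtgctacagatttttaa
CD86 A_70_P030342: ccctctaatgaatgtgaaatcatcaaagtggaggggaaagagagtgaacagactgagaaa
CTSS A_70_P059686: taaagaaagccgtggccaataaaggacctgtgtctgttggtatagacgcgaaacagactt
The probes are named below by the last part of these identifiers. The 2 FCER1G probes share 59 bases and differ by a shift of a single base, while the ITGB2 probes share 14.

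The markers fell into an abundant and a dim set by the scanner's own mark for a spot well above background. A set of 6 probes of 4 genes was well above background on all 16 arrays, namely both ITGB2 probes, both FCER1G probes, the CTSS probe and CD86 P030341. The other 5 probes were dim on some arrays. Both ITGAM probes passed on 13 arrays, LYZ P051227 on 14, LYZ P051226 on 11, and CD86 P030342 on 8, and no member probe was saturated. Values below are log2 signals relative to the 75th percentile of the same array, and they serve to compare arrays for 1 probe, not probes with each other. In tissue of mixed cells, fewer cells of a type and less RNA per cell cannot be told apart.

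The labelled tissue was checked against 19 hypothalamic peptide genes, of which 9 had a tested probe and 8 were well above background on every array, including OXT, SST, NPY, POMC and TAC1. The check for the cell type was thinner. Of 52 further microglia and macrophage genes only 6 had a tested probe, and AIF1, CX3CR1, P2RY12, TMEM119 and CSF1R were not analysed here because no probe carried their name. The arrays were alike in brightness, with a 75th percentile between 1248 and 1597 intensity units and 71.75% to 80.59% of probes well above background.

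One HC array stood apart in these genes. HC2 was the highest of the 5 HC arrays for 11 of 11 member probes and the highest of all 16 arrays for 9, whereas over all tested probes it was the highest HC array for 20.6% and the highest of 16 for 8.03%. HC1 lay at the other end and was the lowest HC array for 9 of 11 probes, against 19% of all probes. HC2 had the highest 75th percentile of the 16 arrays, and the part of array brightness in the result was not tested.

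**Figure D1:**
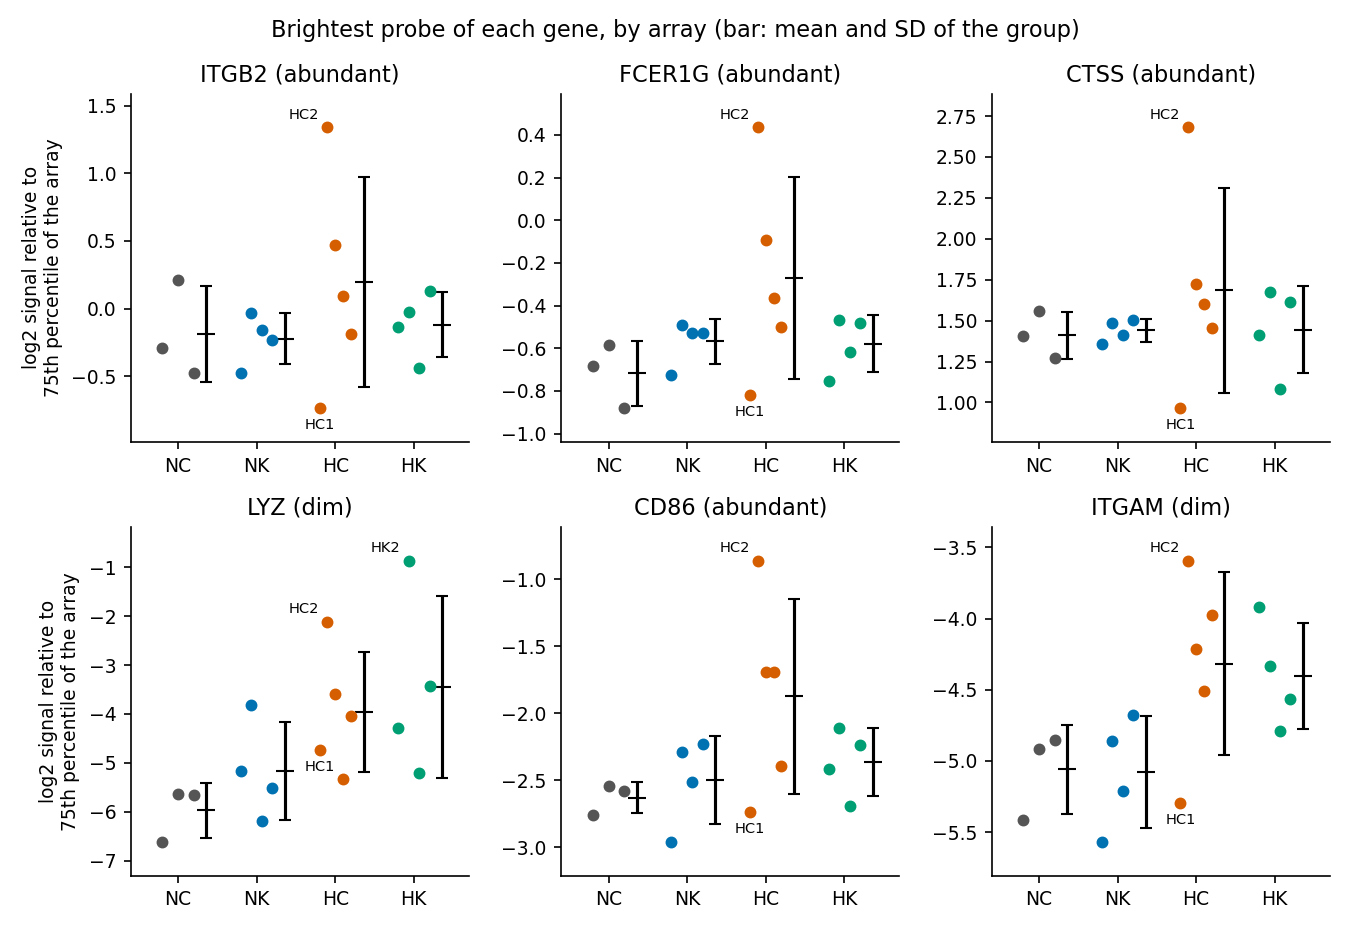
Log2 signal relative to the 75th percentile of the array, for the brightest probe of each gene, by group; each point is 1 array and the bar gives the group's mean and SD. HC2 lies above every other array for ITGB2, FCER1G, CTSS, CD86 and ITGAM, HC1 lies within or below the NC arrays for all but LYZ, and for LYZ the highest array is HK2.

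All 11 member probes had a higher mean in HC than in NC, and 6 probes of 4 genes (FCER1G, LYZ, CD86 and ITGAM) passed the study's threshold of an unadjusted limma p under 0.05. Among all tested probes 8.15% passed that threshold and 4.22% passed it with a higher level in HC. The median change over the 11 probes was 0.46 on the log2 scale, or 0.60 over the brightest probe of each gene, against -0.03 over all probes, of which 44.3% were higher in HC. Since the members were chosen with earlier results of these data known, the shares over all probes describe the array and do not test the list. No member passed after Benjamini-Hochberg adjustment over all probes, the smallest adjusted p being 0.437, and by that rule no probe of the whole array passed in this comparison, while 998 passed unadjusted. The 2 groups did not overlap for 2 member probes, LYZ P051227 and CD86 P030342, and 4.93% of all probes showed such a separation in either direction.

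CD86 and LYZ were the members for which both probes passed. On P030341, the abundant probe, the NC arrays lay at -2.76, -2.55 and -2.58. The HC arrays lay at -2.74, -0.86, -1.69, -1.69 and -2.39. Of the HC arrays 4 were above every NC array and HC1 was within their range. The mean rose by 0.75 ± 0.33 (SE), a 1.69-fold difference with a 95% interval from 1.04 to 2.74 (limma adjusted p = 0.57, exact two-sided permutation p = 0.125). On P030342 the NC arrays lay at -6.46, -5.70 and -5.76, none of them well above background. The HC arrays lay at -5.65, -3.70, -5.05, -4.86 and -4.08, and 4 of the 5 were well above background. Every HC array was above every NC array, HC1 only narrowly. Since NC gave no level above background, the difference is a bound in these values, and HC was at least 2.1-fold higher. The bound sets a mean of -4.67 in HC against -5.74 in NC, where the measured mean was -5.97. It takes HC1 as measured, although HC1 was not well above background. The fit gave 1.30 ± 0.43 (limma adjusted p = 0.437, exact permutation p = 0.0536), and 1.06 without HC2. With other background treatment the fitted difference was smaller, at 0.22 in the authors' own value table and 0.34 with normexp.

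LYZ had the greatest change of the members in these values, though not in the authors' own table, where CD86 P030341 gave 0.54 against 0.50 and 0.52 for the LYZ probes. Its scanner intensity on P051227 was 13.59, 26.71 and 29.82 in the NC arrays. In the HC arrays it was 46.83, 369.7, 125, 34.12 and 85.01, so that every HC array was brighter than every NC array, and they ranged widely. On the relative scale the NC arrays were at -6.62, -5.63 and -5.66 and the HC arrays at -4.74, -2.11, -3.58, -5.33 and -4.03. The mean rose by 2.01 ± 0.89, or 4.03-fold with a 95% interval from 1.08 to 15.1 (limma adjusted p = 0.583, exact permutation p = 0.0357, where 0.0179 is the smallest p that 3 against 5 arrays allow). It was the only member probe under 0.05 by that test, which 4.18% of all probes with a value on every array passed. P051226 rose by 2.43 ± 0.96 (limma adjusted p = 0.533, exact permutation p = 0.0714), with 4 of 5 HC arrays above every NC array. Only 1 of the 3 NC arrays was well above background on P051226.

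FCER1G changed less. The NC arrays of P002706 lay at -0.69, -0.59 and -0.88. The HC arrays lay at -0.82, 0.44, -0.09, -0.36 and -0.50, so 4 exceeded every NC array and HC1 did not. The mean rose by 0.45 ± 0.21, or 1.37-fold (limma adjusted p = 0.603, exact permutation p = 0.161). P002707, shifted by a single base, gave 0.34 ± 0.23 and did not pass, with 3 HC arrays above and 2 below every NC array. The call for P002706 lay close to the threshold. It was lost with slide as a block (0.46), with normexp, in the authors' table, in the fit of the 2 groups alone and in 14 of the 16 fits that left out 1 array.

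Of the 4 probes for the integrin chains 1 passed, and differences between the probes were not tested. ITGAM P050947 lay at -5.42, -4.91 and -4.85 in NC. In HC it lay at -5.30, -3.59, -4.21, -4.51 and -3.97, with HC1 again within the NC range and the other 4 above it. Its mean rose by 0.74 ± 0.33, or 1.67-fold (limma adjusted p = 0.585, exact permutation p = 0.125), while P050946, which shares 40 bases with it, gave 0.26 ± 0.42 and did not pass. The call for P050947 was lost with slide as a block (0.73), with the replicate block (0.64) and with quantile normalization (0.62). ITGB2 did not pass on either probe, at 0.38 ± 0.34 on P030172 and 0.46 ± 0.36 on P030171. On P030172 the NC arrays were at -0.29, 0.21 and -0.48 and the HC arrays at -0.74, 1.34, 0.47, 0.10 and -0.19, so HC1 was below and only HC2 and HC3 above every NC array.

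CTSS, the protease, did not pass either. NC lay at 1.40, 1.56 and 1.27 and HC at 0.96, 2.68, 1.72, 1.60 and 1.45. HC2 was far above the other arrays and HC1 below all 3 NC arrays, and the groups overlapped. The difference was 0.27 ± 0.27, or 1.21-fold with a 95% interval from 0.805 to 1.81 (limma adjusted p = 0.841, exact permutation p = 0.554).

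**Figure D2:**
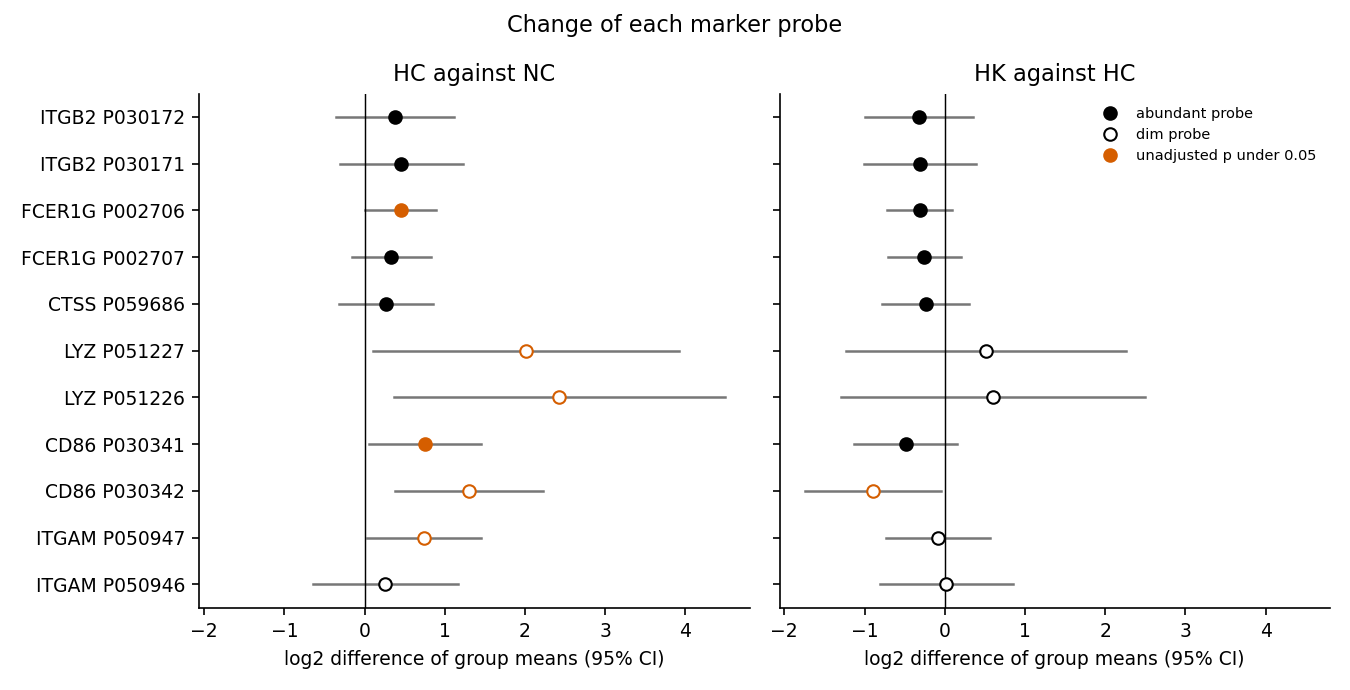
Log2 difference of group means with its 95% interval for each member probe, HC against NC on the left and HK against HC on the right; filled points are abundant probes, open points dim probes, and orange marks an unadjusted p under 0.05. All 11 differences are above 0 on the left, with LYZ at 2.01 and 2.43, and 8 of 11 are below 0 on the right.

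The size of the HC difference depended on HC2. Without HC2 only CD86 P030342 still passed, at 1.06, and the other 5 calls were lost, where 6.34% of all probes passed. ITGB2 and CTSS lost most of their difference, ITGB2 P030172 giving 0.10, ITGB2 P030171 0.14 and CTSS 0.02. FCER1G P002706 gave 0.27, CD86 P030341 0.50, ITGAM P050947 0.56 and LYZ 1.55 and 1.90. Without HC1 all 11 differences grew and 7 probes passed, against 10.8% of all probes, with FCER1G P002706 at 0.59 and CD86 P030341 at 0.97. The NC group of 3 mattered as well. Without NC1 no member passed, against 7.89% of all probes. Without NC2, NC3 or HC3 2 member probes passed, against 5.06%, 6.2% and 6.88%.

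**Figure D3:**
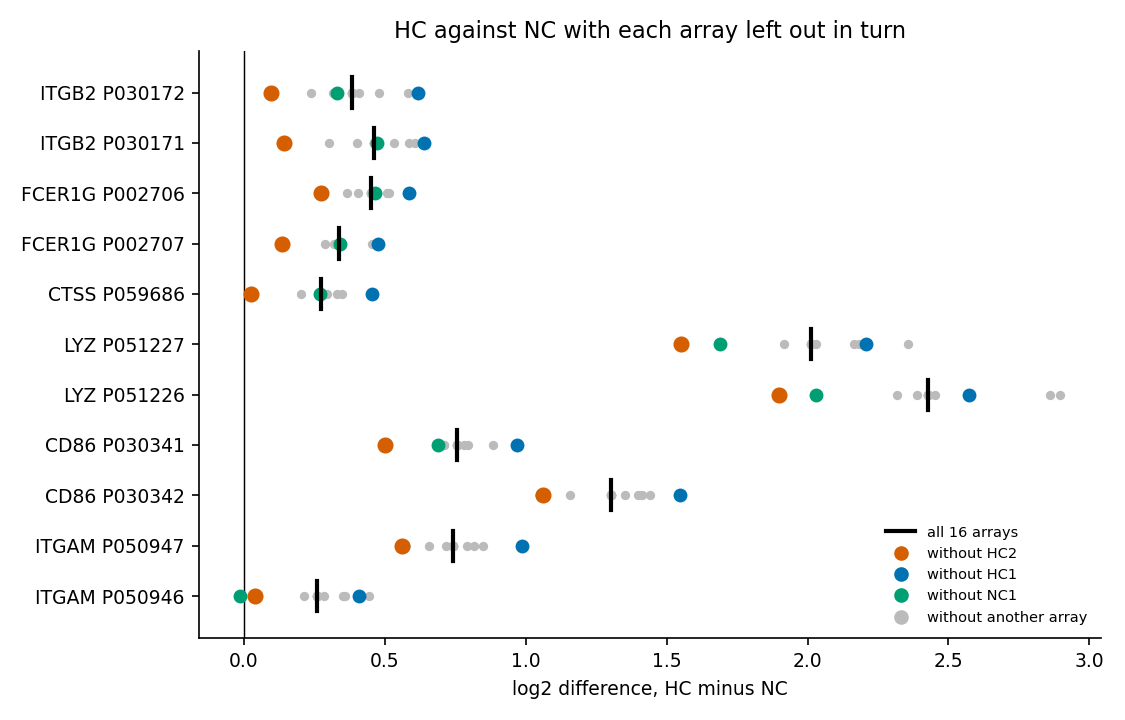
Log2 difference between HC and NC for each member probe with all 16 arrays (black line) and with each array left out in turn (points). Leaving out HC2 gives the lowest value for 9 of the 11 probes, and for ITGB2 and CTSS it brings the difference to between 0.02 and 0.14.

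The direction was mostly the same on both slides, though few arrays stood behind it on each. Each of the 2 slides held arrays of all 4 groups, and the HC mean exceeded the NC mean on both slides for every member probe except ITGAM P050946, which gave -0.017 on slide 2. For LYZ P051227 the difference was 2.70 on slide 1 and 1.35 on slide 2, where NC had 1 array. For CTSS it was 0.34 and 0.32. The HC arrays of slide 1 were HC1 and HC2, and HC1 was below both NC arrays there for ITGB2, FCER1G and CTSS. For these genes the higher HC mean on slide 1 thus came from HC2. The NC array of slide 2 was NC3, the lowest NC array for the same genes. With slide as a block both LYZ probes (2.28 and 2.76) and both CD86 probes (0.76 and 1.29) still passed, and FCER1G P002706 and ITGAM P050947 did not. Of all 12249 probes 1084 passed with that block.

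The dim probes depended on how background was treated. In the authors' own value table the LYZ differences between HC and NC were 0.50 and 0.52, and with normexp background correction 0.69 and 0.76, against 2.01 and 2.43 here, and neither probe passed in those settings. CD86 P030342 gave 0.22 and 0.34 in the same 2 settings, and ITGAM P050947 0.13 and 0.22. The abundant probes moved little: CTSS gave 0.34 and 0.36 and ITGB2 P030172 0.47 and 0.45. CD86 P030341 was the only member probe to pass in the scanner values, the normexp values and the authors' table alike, at 0.75, 0.57 and 0.54.

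No member probe passed for ketamine alone, NK against NC, where 1.09% of all probes did. None passed the exact permutation test either (smallest p = 0.171), against 1.03% of all probes. Of the 11 changes 9 were above 0 and they ran from -0.04 (ITGB2 P030172) to 0.80 (LYZ P051227), with a median of 0.08 against 0.02 over all probes. For CTSS the 4 NK arrays lay at 1.36, 1.49, 1.41 and 1.50, and the 95% interval of the difference, -0.58 to 0.64, bounds what could have been missed. For LYZ P051227 they lay at -5.16, -3.82, -6.20 and -5.52, with NK2 above the rest. Its interval ran from -1.19 to 2.79, so a difference as large as the one between HC and NC was within it.

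After hypoxia, the ketamine fetuses had lower means than the saline fetuses for 8 of 11 probes, and 1 probe passed. HK against HC shares the HC arrays with HC against NC, so that a high HC2 moves both differences. Over all probes 7.04% passed in this comparison and 3.79% passed with a lower level in HK. The median of the members was -0.25 against 0.03 over all probes, and no member passed after adjustment. The exact permutation test, which 4.91% of all probes passed, called no member.

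CD86 P030342 was the probe that passed. Its HK arrays lay at -5.50, -5.23, -6.19 and -5.35, of which 2 were well above background, and they overlapped HC1 while HC2, HC3, HC4 and HC5 lay above all of them. The mean fell by 0.90 on the log2 scale (SE 0.39, limma adjusted p = 0.698, exact permutation p = 0.0873). CD86 P030341 lay at -2.41, -2.11, -2.70 and -2.24 in HK, a difference of -0.49 ± 0.30 that did not pass. Without HC2 no member passed, against 8.54% of all probes, and the differences were -0.66 and -0.24 for the CD86 probes.

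The other abundant markers had differences between -0.24 and -0.32 in HK against HC, and none passed. FCER1G P002706 lay at -0.75, -0.47, -0.62 and -0.48 in HK, all within the range of the HC arrays, for a difference of -0.31 ± 0.19. CTSS lay at 1.41, 1.68, 1.08 and 1.61, for a difference of -0.24 ± 0.25. Without HC2 the differences of ITGB2 were -0.03 and 0.01, that of CTSS 0.01 and that of FCER1G P002706 -0.13. Of the dim markers, ITGAM gave -0.08 and 0.02, and LYZ was higher in HK, at 0.51 ± 0.81 and 0.60 ± 0.88, neither passing.

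LYZ was also the member with the most uneven HK group. Scanner intensity on P051227 was 66.88, 701.8, 37.53 and 125.3 in the 4 HK arrays. HK2 was the brightest of all 16 arrays on both LYZ probes, and HK3 was within the range of HC. Without HK2 the HK against HC differences turned to -0.35 and -0.25.

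Hypoxia under ketamine, HK against NK, gave 10 of 11 differences above 0, and 1 probe passed where 8.69% of all probes did and 2.38% with a higher level in HK. It was LYZ P051226, which rose by 2.42 ± 0.93 (limma adjusted p = 0.457, exact permutation p = 0.0857). The other LYZ probe gave 1.73 ± 0.86 and ITGAM P050947 0.68 ± 0.32, and neither passed. By the exact permutation test no member passed, against 5.41% of all probes. Without HK2 the LYZ differences were 1.57 and 0.87 and no member passed, against 11.9% of all probes. ITGB2, FCER1G, CTSS and CD86 lay between -0.01 and 0.17. The side-by-side values for CD86 P030341 were 0.75 for hypoxia under saline and 0.14 for hypoxia under ketamine.

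The difference between those effects was tested as an interaction, and no member passed, where 3.8% of all probes did. Of 11 estimates 10 were below 0 with a median of -0.29, against 0.01 over all probes, and all use the same HC arrays as above. The lowest was CD86 P030342 at -1.13 ± 0.60 (limma adjusted p = 0.994, 95% interval -2.42 to 0.15). For CD86 P030341 it was -0.62 ± 0.45 and for CTSS -0.27 ± 0.38. Without HC2 the estimates were -0.89 and -0.37 for the CD86 probes, -0.02 for CTSS and 0.00 and -0.01 for ITGB2. The interaction passed for 2 probes without HC1, against 4.4% of all probes, and for 1 without NK1, against 4.57%.

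The abundant markers moved together from array to array. Over the 16 arrays, ITGB2 and CTSS, each by its brightest probe, had a Pearson r of 0.96 and a Spearman rho of 0.93. ITGB2 and FCER1G had 0.94 and 0.83, FCER1G and CD86 0.92 and 0.87, and CTSS and CD86 0.88 and 0.89. Each of these had a permutation p of at most 0.00018 among 15 gene pairs (adjusted p at most 0.00054 over the 15), 1e-05 being the smallest that 100000 permutations can give. Without the 2 arrays farthest from the median of the first gene, r among these 4 genes was between 0.67 and 0.88, and within the slides between 0.77 and 0.98. With the group means removed and the 4 groups pooled it was between 0.90 and 0.96. The HC arrays weigh most in that value, since their spread was the widest. For FCER1G P002706 the SD was 0.47 in HC against 0.11 to 0.15 in the other groups. The relation within each group alone was not tested.

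The dim markers followed less closely. LYZ had an r between 0.52 and 0.66 with the other 5 genes, with adjusted p between 0.0077 and 0.044 by permutation. With ITGB2 it fell from 0.52 to 0.27 without HC2 and HC3, so that relation rested on those arrays. ITGAM had an r of 0.68 with ITGB2, the chain it pairs with in complement receptor 3, and 0.45 without HC2 and HC3. Probes of a gene correlated at 0.97 for LYZ, 0.96 for ITGB2, 0.95 for FCER1G, 0.82 for CD86 and 0.58 for ITGAM, whose pair was the least alike in spite of its 40 shared bases.

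**Figure D4:**
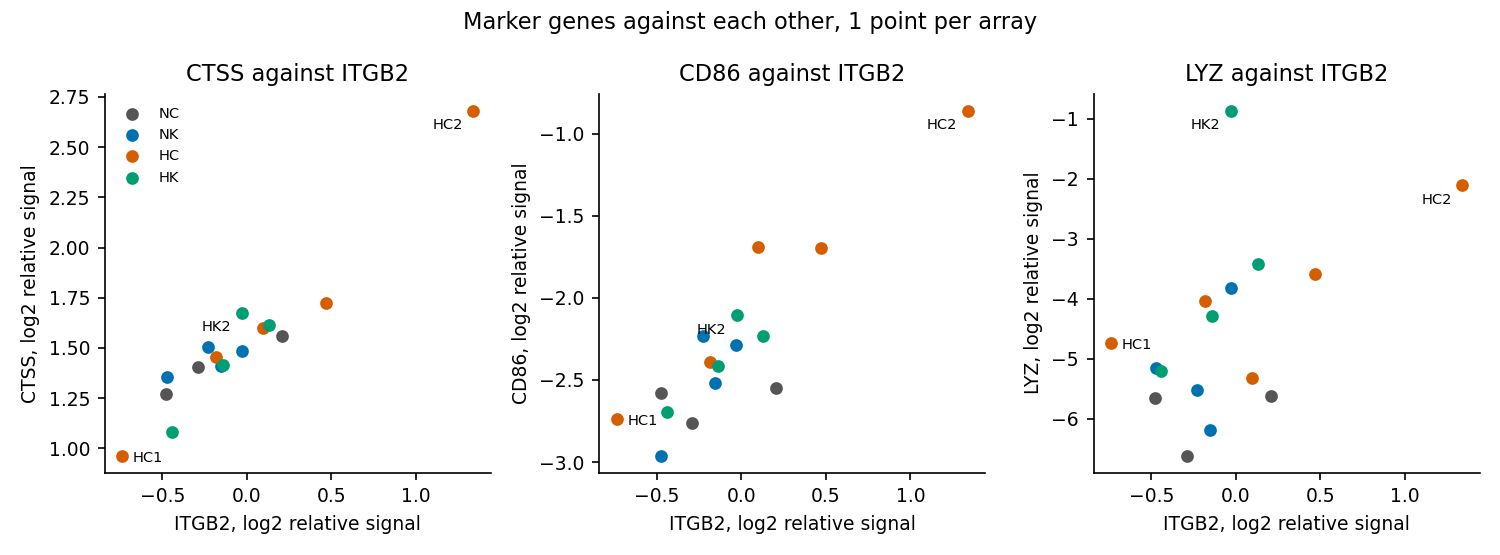
Relative log2 signal of CTSS, CD86 and LYZ against that of ITGB2, by the brightest probe of each gene, 1 point per array and colored by group. CTSS follows ITGB2 closely (r = 0.96), CD86 does so too (r = 0.90), and LYZ is more scattered (r = 0.52). HK2 is the highest array for LYZ, and HC2 is the highest for ITGB2, CTSS and CD86.

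Among 863 other named genes, those with the pattern most like the abundant markers were searched by Pearson r over the 16 arrays. CYBA, a chain of the phagocyte NADPH oxidase, was among the 3 most alike for ITGB2 P030172, both FCER1G probes and CTSS, with r between 0.83 and 0.87. SLC2A5, a fructose transporter found on microglia in the brain, had 0.92 with FCER1G P002707 and 0.80 with ITGB2 P030172. TLR3, a receptor for double-stranded RNA, had 0.80 to 0.81 with ITGB2 and CTSS, and GNLY, a cytotoxic granule protein, had 0.80 to 0.84. For CD86 P030341 the most alike were IRF2, an interferon regulatory factor, CLEC4E, a lectin that signals through FCER1G, and PSME2, a proteasome activator, with 0.88, 0.87 and 0.87. CLEC4E, also alike for FCER1G P002706 at 0.83 (0.67 without HC2), was well above background on 4 of the 16 arrays. Its values thus rest mostly on readings near background. OVAR had 0.78 with ITGB2 P030171 (0.73 without HC2), and LOC100135684 had 0.84 with FCER1G P002707 (0.75 without HC2). Without HC2 the CYBA values were between 0.55 and 0.65, those of SLC2A5 0.83 and 0.57, those of TLR3 0.60 to 0.64, those of GNLY 0.65 to 0.71, and those of IRF2, CLEC4E and PSME2 with CD86 0.87, 0.75 and 0.80.

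The partners of the members on the array gave further values. In the Fc receptor list, 6 of 17 genes were tested and 3 passed in HC against NC, none of them lower in HC. FCGR1A, the high-affinity IgG receptor, rose by 1.01 ± 0.42 and fell by 0.88 in HK against HC, and without HC2 it gave 0.78 and -0.65 and passed in neither. CLEC4E and CLEC6A, lectins that signal through FCER1G, were well above background on no NC array and on 3 and 4 of the 5 HC arrays, so HC alone was enough to bring them into the test. Their differences are bounds in these values: CLEC4E was at least 1.48-fold and CLEC6A at least 2.15-fold higher in HC. Without HC2 the mean of CLEC4E in HC was under that bound, and CLEC6A was at least 1.43-fold higher. Of the integrin ligands, ICAM1, the endothelial and leukocyte ligand of ITGB2 integrins, rose by 2.42 ± 0.80 in HC against NC (limma adjusted p = 0.442) and still passed without HC2, at 2.20. C3, whose fragment is bound by ITGAM with ITGB2, gave 0.27 ± 0.26 there and fell by 0.59 in HK against HC, where it gave -0.51 without HC2 and did not pass.

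Of the 6 further microglia and macrophage genes 2 passed in HC against NC. CD14, a coreceptor for lipopolysaccharide, rose by 1.34 ± 0.59 and fell by 1.35 in HK against HC, and without HC2 it gave 1.01 and -1.02 and passed in neither. CYBB, the catalytic chain of the phagocyte oxidase, was well above background on 3 HC arrays, 1 NK array and no NC array. The HC arrays alone were thus enough to bring CYBB into the test. Its mean in HC, -5.94, was not above the bound for NC, -5.89, so no fold is given. Without HC2 the fitted difference of CYBB went from 1.16 to 0.92 and did not pass. CD40, the costimulatory receptor on macrophages and B cells, gave 2.12 ± 1.07, the largest difference of the 6, with HC4 the highest array. CYBA gave 0.21 ± 0.19, CD80 0.39 ± 0.61 and SPP1 -0.28 ± 0.32, and none of these 4 passed. The 6 lysosomal genes beside CTSS did not pass in HC against NC, with a median of -0.01, and CTSD rose by 0.16 ± 0.06 in HK against HC, giving 0.13 without HC2, which did not pass. The receptors of CD86 were little informed by the array, as CTLA4 was well above background on 6 arrays and the CD28 probe on none. ITGAL, another alpha chain that pairs with ITGB2, was well above background on 2 arrays and was not tested.

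Some markers of other cells also differed between the groups, and their part in the results was not tested. Of 31 neutrophil genes 4 had a tested probe: the cathelicidins BAC5, CATHL3 and SC5, and LTF, lactoferrin. None of the 4 passed in HC against NC, where BAC5, CATHL3, SC5 and LTF gave 1.84, 2.66, 1.47 and 0.77. In HK against NK, BAC5 and CATHL3 passed, at 2.72 and 3.37, with uneven HK arrays. BAC5 lay at -1.73, 2.78, -2.11 and 2.81 in HK1 to HK4, and CATHL3 at -2.83, 2.87, -3.23 and 2.51. For both genes HK1 and HK3 were within the range of the NK arrays, and HK2 and HK4 were above it. Relative to the 75th percentile, the 4 genes' summed linear level was 0.436 to 1.19 in NC and 0.286 to 1.15 in NK. It was 0.857 to 8.43 in HC and 0.576 to 17.6 in HK. The highest array was HK2, which was also the highest array for LYZ. For ITGB2, FCER1G, CTSS and CD86 HK2 was within the range of the HC arrays, which HC2 widens. HK2 was above every NC array for 10 of 11 member probes. S100A8, S100A9 and MPO, further genes of the neutrophil list, were not analysed here.

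**Figure D5:**
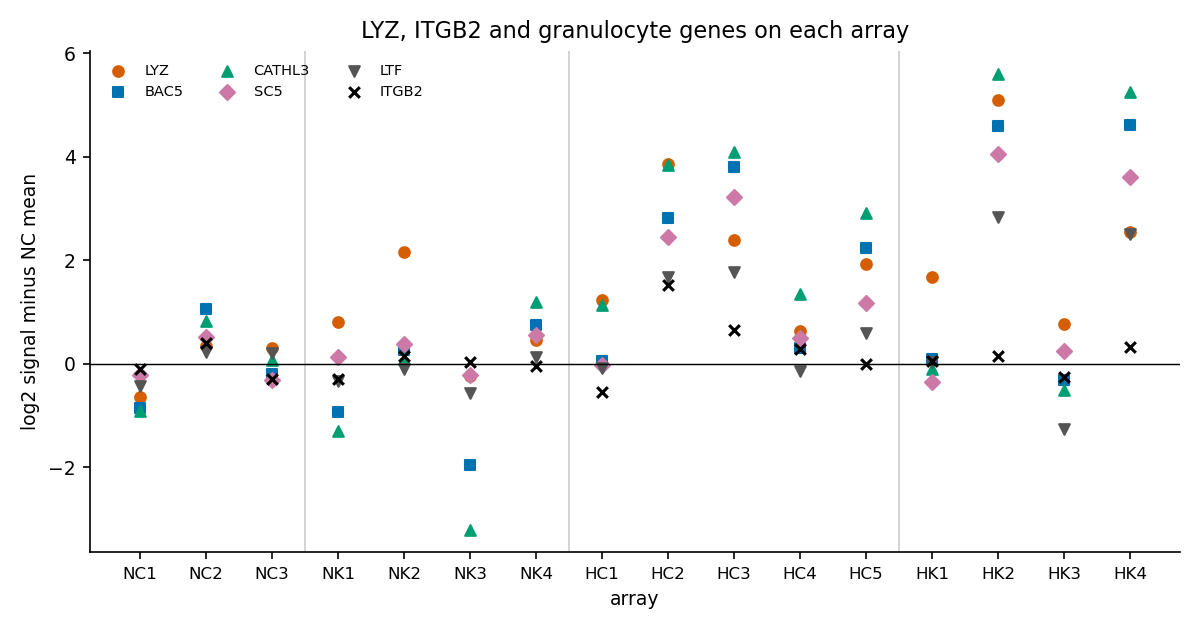
Log2 signal minus the mean of the NC arrays for LYZ, ITGB2 and 4 granulocyte genes (BAC5, CATHL3, SC5, LTF) on each of the 16 arrays, grouped as NC, NK, HC and HK. LYZ and the granulocyte genes are all above every NC array on HC2, HC3, HC5, HK2 and HK4, and ITGB2 is raised on HC2 but near 0 on HK2.

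Of the lymphocyte genes 6 of 30 were tested and 2 passed in HC against NC. These were the T cell genes CD3D, which rose by 1.58 ± 0.56, and CD5, by 1.13 ± 0.41. CD3D was well above background on 1 NC array and on all 5 HC arrays. The other tested genes did not pass, with IL2RA at 0.96 ± 0.81, CD3E at 0.66 ± 0.46 and LCK at 0.21 ± 0.25. CD247, also a T cell gene, went the other way at -0.68 ± 0.51. The lymphocyte list had a summed level of 1.07 to 2.02 in NC and 0.983 to 2.27 in HC. Of 6 tested endothelial genes SELP, the adhesion molecule that captures leukocytes, rose by 4.70 ± 1.09 in HC against NC (limma adjusted p = 0.342), and the list had a median of -0.13. PECAM1 gave 0.03 ± 0.24, OCLN, a tight junction protein, -0.60 ± 0.31, NOS3 -0.39 ± 0.38 and SELE -0.28 ± 1.00, none of which passed, and OCLN rose by 0.91 ± 0.28 in HK against HC. GLT-1, an astrocyte glutamate transporter, was well above background on 6 arrays, of which 1 was in NC, 1 in HC and 2 in HK. It fell by 1.13 in HC against NC, giving -0.87 without HC2, which did not pass. In HK against HC it rose by 1.28 ± 0.41 and still passed without HC2, at 1.03. Both differences rest mostly on readings near background. None of the other 4 tested astrocyte genes passed in either comparison. No oligodendrocyte gene and 1 neuron gene, GRIN1, were tested, and of the 9 tested hypothalamic peptide genes none passed in HC against NC. Nor did the tested red cell genes HBB and EPOR, the choroid plexus gene TTR or the 6 tested anterior pituitary genes pass there.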

How the data were processed

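RNA from 16 fetal hypothalami was hybridised by the authors to 1-colour Agilent sheep arrays, 1 array per fetus, on 2 slides, and the deposited scanner files hold the processed intensity of each spot from Feature Extraction 10.1.1.1, background-corrected and not scaled between arrays. A deposited table holds the authors' log2 values of the same arrays (median 8.47 to 8.48 in every column). Its rows correlated at 0.93 to 0.95 with the same array's scanner values, its background treatment is not given in the sources used here, and it served as an alternative.

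Control spots and spots marked as outliers (0.0801% of the others) were left out, spots of a probe were averaged, log2 intensities were taken relative to each array's 75th percentile, and a probe was tested where 3 or more arrays marked it as well above background. The limma 3.58.1 fit in R 4.3.3 held all 16 arrays in 4 groups. A call is an unadjusted two-sided p under 0.05, as in the study's methods, with Benjamini-Hochberg adjustment over 12249 probes beside it. Exact permutation tests of the difference of group means were two-sided. The number of arrays limits the precision. Replicates are single fetuses, and groups came from the sample titles.

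RefSeq accessions were named through a gene table of the assembly ARS-UI_Ramb_v3.0 (726 of 750 matched), and 89% of probes have no name. The files place no probe in a genome. The members and the 17 gene lists were chosen with earlier results of these data known. Every member probe is described. From the other lists, any tested gene past the threshold in HC against NC or HK against HC may be named, by its brightest probe, with at most 4 others per list, and for each abundant probe the 3 most correlated named genes. The alternatives were quantile normalization, normexp with an offset of 50, the deposited table, other filters, slide or replicate number as a block, array weights, 2-group fits, outlier spots kept, 1 probe per gene, and leaving out each array. The fit was tested on simulated data.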

Additional observations from a re-analysis of the deposited data

Results flagged for a closer look

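One group of values had an array far from the others. For FCER1G P002706 in NK, NK1 lay at -0.72 while the other 3 NK arrays lay between -0.53 and -0.49, and its gap to the nearest array was 0.840 of the range of the group. Chance gives such a gap in about 1 of 20 groups, and 33 groups of 4 or 5 arrays were examined.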

How the results depend on the processing

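The count of members passing in HC against NC, 6, was 2 with normexp (both CD86 probes), 1 in the authors' value table (CD86 P030341), 3 when only the 2 groups were fitted (both LYZ probes and CD86 P030342) and 1 by the exact permutation test, and it ran from 0 (without NC1) to 7 (without HC1) with each array left out. Of all 12249 probes, 998 passed in the reported fit, 964 with normexp, 976 in the authors' table and 812 in the 2-group fit. In HK against HC the count of 1 became 0 with quantile normalization, normexp, the authors' table, the brightest probe of each gene, the 2-group fit and the exact permutation test, and ran from 0 to 3 with each array left out. Over all probes 862 passed there in the reported fit, 871 with quantile normalization, 845 with normexp and 893 in the authors' table. The 2-group fit gave 522, and the brightest probe of each gene 839 of 11809. In HK against NK the count of 1 became 2 with quantile normalization and in the 2-group fit, 0 in the authors' table, with the brightest probe and by the exact permutation test, and ran from 0 to 3. Over all probes 1065 passed there in the reported fit, 1073 with quantile normalization, 1033 in the 2-group fit and 1061 in the authors' table. The brightest probe of each gene gave 1031 of 11809. The interaction count of 0 ran from 0 to 2, and that of NK against NC stayed at 0. Apart from the replicate block, given below, the remaining alternatives left the counts within 1.5 times of the values reported. The smallest adjusted p of any member in any limma setting was 0.253.

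Genes of the other lists were also fitted without HC2, an alternative chosen after seeing the data. Small differences turned sign in some settings. In NK against NC, ITGB2 P030172 was 0.0029 with normexp and 0.031 in the authors' table, and with each array left out it ran from -0.18 to 0.16, and CTSS from -0.042 to 0.10. In HK against HC, ITGAM P050946 was -0.011 with normexp, -0.030 with slide as a block and -0.11 with array weights. In HK against NK, FCER1G P002706 was 0.0073 with quantile normalization, 0.0097 with normexp, 0.022 in the authors' table and 0.0046 with array weights. With each array left out, ITGAM P050946 ran from -0.013 to 0.44 in HC against NC. In HK against HC, ITGB2 P030171 ran from -0.49 to 0.0076, CTSS from -0.42 to 0.011, LYZ P051227 from -0.35 to 1.098, LYZ P051226 from -0.25 to 1.25, ITGAM P050947 from -0.33 to 0.097 and ITGAM P050946 from -0.19 to 0.32. In HK against NK, FCER1G P002706 ran from -0.064 to 0.045, CD86 P030341 from -0.018 to 0.25 and CD86 P030342 from -0.14 to 0.38. Of the 21 other differences, 12 turned sign in some setting, 1 passed the threshold in some setting and none passed it with all arrays.

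Replicate numbers in the titles are shared between groups, and arrays of the same number correlated in their deviations at -0.06 to 0.35, over 0.1 in 15 of 21 pairs. Arrays of other numbers on the same slide did so in 19 of 26 pairs, with a median of 0.21 against 0.22, and since not every pair was over 0.1 the numbers were not taken to pair the fetuses. With the replicate block 2 members passed in HK against HC (both CD86 probes), 2 in HK against NK (both LYZ probes) and 5 in HC against NC, and ITGAM gave 0.0017 and -0.077 in HK against HC. Of all 12249 probes, that block called 1142 in HK against HC, 1105 in HK against NK and 1206 in HC against NC. Of the 16 arrays 9 correlated best with their own number. A fit with both the block and the slide could not be fitted, since each number lies on 1 slide.

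Groups of 3 to 5 arrays limit every comparison. Dim probes read close to background, so their fold differences rest on how background was treated, and 89% of probes have no gene name.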
